A study of Mus musculus with 12 samples.

Results

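Matrix metalloproteases (Mmp), the Adamts proteases and their Timp inhibitors were followed in the palatal shelves of mouse embryos from a tamoxifen-treated and a control group. The members were all gene symbols of the count files made of Mmp, Adamts or Timp and a number. This rule found 46 of 24391 symbols: 23 Mmp, 19 Adamts and 4 Timp genes. A filter on low counts left 36 of them for testing, with 13 Mmp, 19 Adamts and 4 Timp genes.

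The tissue was the anterior and the posterior part of the palatal shelves of C57BL/6 embryos at E13.5 (day of gestation). There were 4 groups of 3 libraries: anterior palate under tamoxifen, anterior palate of controls, posterior palate under tamoxifen and posterior palate of controls. Tamoxifen is a selective modulator of oestrogen receptors, and the series concerns the cleft palate it induces in mice; its dose, time and route and the vehicle of the controls are not given in the sample labels. No group carries a named transgene or mutant allele, and whether replicates are separate embryos, litters or pools is not stated, so p-values measure the spread between these libraries, which may be technical.

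Matrix metalloproteases are zinc-dependent enzymes that are made as inactive precursors and cut collagens and other proteins of the extracellular matrix. Membrane-type members sit on the cell surface, and one of them, Mmp14, activates the gelatinase Mmp2 in a complex with Timp2. Adamts proteases are secreted enzymes with thrombospondin repeats that cut proteoglycans such as versican and aggrecan, trim procollagens or act on fibrillin and other matrix proteins. Timps block the active site of these enzymes, and Timp3 is the one best known for acting on Adamts members as well. The palatal shelves grow and elevate as a mesenchyme rich in hyaluronan and versican, and in mice the combined loss of Adamts20 and part of Adamts9 function leads to cleft palate.

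Total counts were 39.4 M to 73.0 M per library, with the next highest at 50.2 M. Levels are TMM-scaled CPM, the counts of a gene relative to the library total, differences are log2 fold changes with their standard error (SE), and calls rest on edgeR's quasi-likelihood test at 0.05 after Benjamini-Hochberg adjustment over 15958 genes. Palatal mesenchyme markers (Osr1, Osr2, Prrx1, Pax9, Twist1 and Col1a1) were all tested, with Prrx1 at 386 CPM or more in every library. Under tamoxifen 2 of these 6 were called higher and 2 lower in the anterior palate, and 1 higher and 1 lower in the posterior palate. Among all genes the shares called higher and lower were 25.6% and 24% in the anterior and 17.3% and 11.7% in the posterior palate. The region labels were checked with 4 marker genes. Shox2 and Msx1, which mark the anterior palate, summed to 624 to 756 CPM in tamoxifen anterior, 704 to 947 CPM in control anterior, 26.1 to 49.5 CPM in tamoxifen posterior and 26.2 to 40.2 CPM in control posterior libraries. Meox2 and Tbx22, markers of the posterior palate, summed to 11.8 to 17.7, 7.99 to 14.2, 161 to 181 and 144 to 169 CPM in the same order of groups. In the anterior palate Shox2 lay higher under tamoxifen, at 376 to 579 CPM against 304 to 360 CPM in controls. Anterior Msx1 lay lower, at 177 to 249 against 399 to 615 CPM, and 1 of these 2 genes was called lower and 0 higher. Tamoxifen anterior replicate 2 had the lowest level of its group for 20 of the 30 members with a mean of at least 5 CPM, and tamoxifen posterior replicate 1 for 18 of them.

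Promoter sequences are shown for 5 members whose levels the results turn on: the largest called tamoxifen rise (Adamts12), a rise present in both parts of the palate (Adamts18), the most abundant protease (Mmp14), and the protease and the inhibitor with large regional differences (Adamts9, Timp3). They are RefSeq promoter windows of 300 bases around the annotated start, 5′ to 3′ on the strand of the gene, build GRCm38.p6, at chr15:11064523-11064822 (plus strand), chr8:113848790-113849089 (minus), chr14:54431348-54431647 (plus), chr6:92943485-92943784 (minus) and chr10:86300162-86300461 (plus). Capitals mark matches to the GC box letters GGGCGG on either strand, including overlapping matches.
Adamts12: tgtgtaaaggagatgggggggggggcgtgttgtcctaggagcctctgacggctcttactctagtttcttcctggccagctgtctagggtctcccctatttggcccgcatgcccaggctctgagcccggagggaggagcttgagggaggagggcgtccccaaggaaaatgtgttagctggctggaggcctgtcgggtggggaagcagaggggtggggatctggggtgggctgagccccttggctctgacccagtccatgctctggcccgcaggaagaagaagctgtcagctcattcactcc
Adamts18: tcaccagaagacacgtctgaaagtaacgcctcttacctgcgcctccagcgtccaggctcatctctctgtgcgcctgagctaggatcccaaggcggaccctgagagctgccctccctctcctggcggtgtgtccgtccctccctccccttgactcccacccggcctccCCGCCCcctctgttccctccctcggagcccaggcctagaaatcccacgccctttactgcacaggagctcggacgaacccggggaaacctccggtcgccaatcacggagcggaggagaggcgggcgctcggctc
Mmp14: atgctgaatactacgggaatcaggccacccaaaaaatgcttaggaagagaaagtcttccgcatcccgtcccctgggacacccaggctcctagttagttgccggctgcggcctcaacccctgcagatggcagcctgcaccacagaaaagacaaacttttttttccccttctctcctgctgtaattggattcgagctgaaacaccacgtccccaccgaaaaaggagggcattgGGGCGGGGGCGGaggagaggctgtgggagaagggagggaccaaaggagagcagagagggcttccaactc
Adamts9: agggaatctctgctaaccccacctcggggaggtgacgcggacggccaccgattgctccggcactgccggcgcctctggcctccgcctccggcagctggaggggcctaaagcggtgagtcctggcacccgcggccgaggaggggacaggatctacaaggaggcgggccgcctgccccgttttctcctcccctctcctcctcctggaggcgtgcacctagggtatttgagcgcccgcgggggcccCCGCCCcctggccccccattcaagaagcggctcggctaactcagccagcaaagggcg
Timp3: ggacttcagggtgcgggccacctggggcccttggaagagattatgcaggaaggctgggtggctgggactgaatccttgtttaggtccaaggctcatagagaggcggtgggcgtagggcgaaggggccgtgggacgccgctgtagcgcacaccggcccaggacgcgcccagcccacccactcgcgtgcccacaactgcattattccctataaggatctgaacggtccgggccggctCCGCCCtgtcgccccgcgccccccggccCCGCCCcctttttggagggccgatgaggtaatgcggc
Of the 46 members 32 had such a window, among them 22 of the 36 tested members with 23 windows. The GC box stood in 18 of these 23 windows and in 35.7% of all 32851 promoters in the table. Adamts12 was among the windows without it, while Adamts18 and Adamts9 held 1 match each and Mmp14 and Timp3 held 2 each. The letters AGGTCA, 1 arm of an oestrogen response element, were found in 0 of the 23 windows and in 16.3% of all promoters. The AP-1 motif TGANTCA was in 1 window, that of Mmp13, against 7.81% of all promoters, and the TATA box letters TATAAA were in 2 windows, Mmp13 and Adamts1, against 13.6%. These motifs were searched on both strands, the letters of different motifs may overlap, and a match describes the sequence only.

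Levels of different genes were compared as CPM per kilobase of the longest annotated transcript. Mmp14 (183 CPM per kilobase, mean of the 12 libraries) and Mmp2 (159.8) had the highest level, followed by Timp2 (83.8), Mmp11 (56.2), Adamts10 (42.6) and Timp3 (26.7). The transcripts of the complex that activates pro-Mmp2 were therefore the 3 most abundant of the list on this scale. Mmp2 and Mmp14 together made up most of the summed Mmp level: Mmp14 held 37.1, 37.04 and 38.1% of it in tamoxifen anterior and 40.3, 42.6 and 45.02% in control anterior libraries. The Mmp2 share of that sum was 38.9, 38.8 and 38.1% in tamoxifen anterior and 36.7, 34.4 and 32.6% in control anterior libraries. In the posterior palate Mmp14 held 39.2, 40.3 and 41.3% in tamoxifen and 46.01, 42.4 and 42.4% in control libraries. The posterior Mmp2 share was 37.3, 38.2 and 37.03% in tamoxifen and 32.9, 35.9 and 34.7% in control libraries. In both parts of the palate the Mmp14 share was thus lower and the Mmp2 share higher in every tamoxifen library than in every control library.

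At the other end, 10 members were too low to test. Mmp1a, Mmp1b, Mmp10 and Mmp27, which code for 2 interstitial collagenases, a stromelysin and a little-studied member, had 0 counts in every library. A count of 0 allows a level of up to 0.0411 to 0.0762 CPM, taking 3 counts as the limit in each library, and this covers counting error only. Mmp21, Mmp3, Mmp7, Mmp8, Mmp12 and Mmp20 had few counts, the highest being 14 counts for Mmp8 in 1 library. The neutrophil collagenase Mmp8, the macrophage elastase Mmp12 and the enamel protease Mmp20 are thus among the transcripts that were at or near 0. Mmp13, Adamts13, Timp4, Mmp24 and Mmp19 passed the filter with means under 1 CPM.

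**Figure D1:**
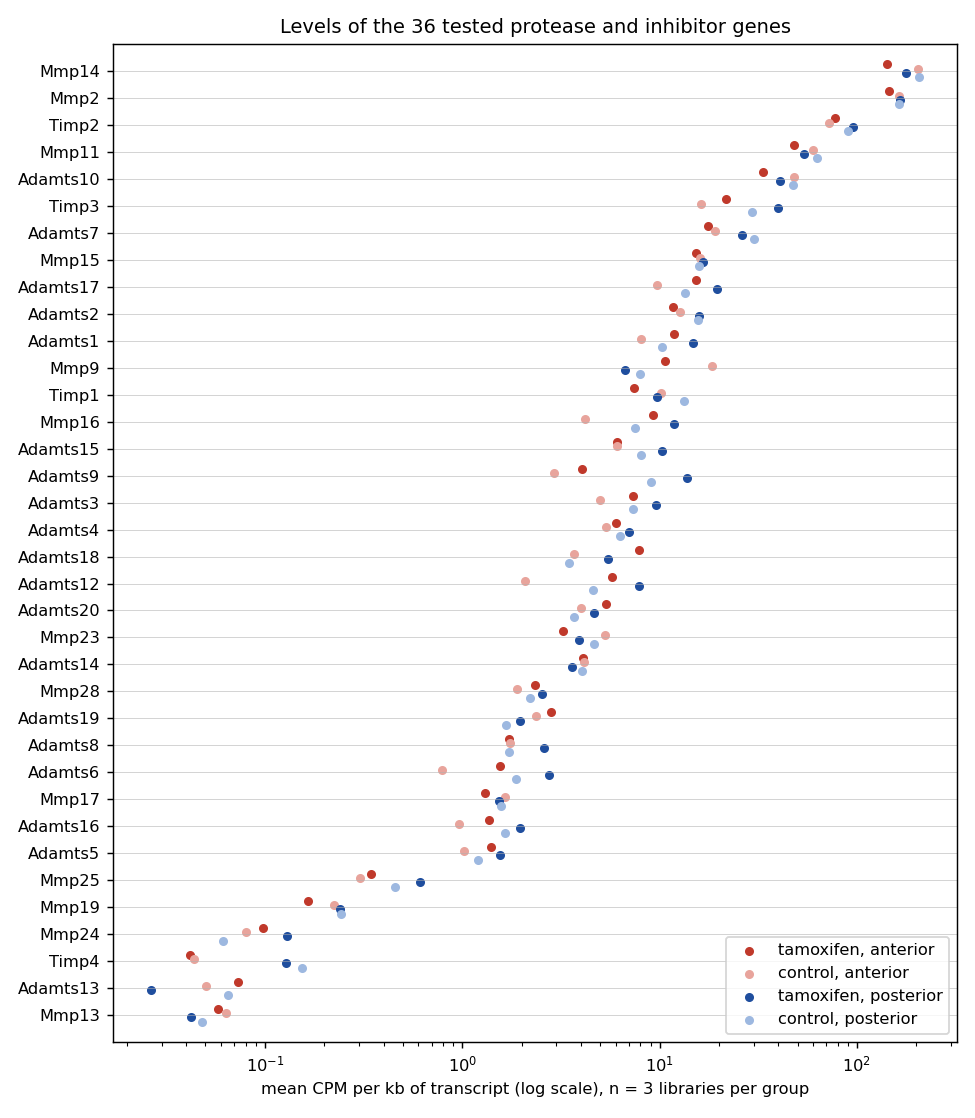
Level of the 36 tested members in CPM per kilobase of transcript on a log axis, 1 point per group, the mean of 3 libraries, for tamoxifen anterior, control anterior, tamoxifen posterior and control posterior palate, ordered by mean level. Mmp14 and Mmp2 stand at the top with means of 183 and 159.8 CPM per kilobase, and Mmp13 has the lowest mean.

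The first comparison asks what tamoxifen does to these genes in the anterior palate. There 12 members were higher under tamoxifen, where 25.6% of all genes tested were called higher, and 6 were lower, where 24% of all genes were called lower. The median log2 fold change of the 36 members was 0.14, against -0.02 for all genes tested. By family, of 19 Adamts genes 10 were higher and 1 was lower, of 13 tested Mmp genes 1 was higher and 4 were lower, and of 4 Timps 1 was higher and 1 lower. In 14 members all 3 tamoxifen values lay above all 3 control values (28.7% of all genes), and in 8 they lay below (27.8%). A comparison of 3 values with 3 cannot give an exact p below 0.1, so levels carry no test of their own.

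In the posterior palate 13 members were higher under tamoxifen, against 17.3% of all genes, and 2 were lower, against 11.7%. The median log2 fold change was 0.17 for the members and 0.02 for all genes. Adamts genes again held most of the calls, with 11 of 19 higher and 1 lower, while 1 of 13 tested Mmp genes was higher and 0 were lower, and 1 Timp was higher and 1 lower. The values did not overlap in 16 members that were higher (26.5% of all genes) and in 6 that were lower (21.5%). The number higher was 8 when control posterior replicate 1 or 3 or tamoxifen posterior replicate 1 or 3 was left out. The number lower was 0 without control posterior replicate 1 or 3, 1 without any 1 of the tamoxifen posterior libraries and 4 without tamoxifen anterior replicate 2. Both falls of the main fit, of Adamts10 and Timp1, were lost without tamoxifen posterior replicate 1, so the 1 counted there was another member.

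Tamoxifen fold changes in these libraries went with transcript length. Over 12684 genes Spearman's rho between the fold change and the length was 0.59 in the anterior and 0.56 in the posterior palate. Among the 36 members it was 0.57 and 0.48, and with GC content -0.46 and -0.38, values that describe genes measured in the same libraries. The other comparisons were not all free of it. For anterior against posterior palate, rho with length over the 12684 genes was -0.36 in controls and 0.03 under tamoxifen. For the difference of the tamoxifen effects between the parts it was 0.46. Among the members these values were -0.37, -0.24 and 0.42. The members that were higher in the anterior palate had a median transcript of 6029 bases and those that were lower one of 2731.5 bases, with 4517 bases for those not called. Tamoxifen and regional results below are also given, where stated, after a length and GC trend was removed from every library.

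After removal, 10 members were higher and 4 lower in the anterior palate (16.1% and 16.7% of all genes), and rho with length among the members was 0.07. By family these were 7 Adamts genes higher and 2 lower, 2 Mmp genes higher and 2 lower, and 1 Timp higher and 0 lower, and the median of the 13 tested Mmp genes was 0.07 after removal and -0.19 before it. Of the 12 members called higher before, 7 were still called (Adamts1, Adamts3, Adamts12, Adamts16, Adamts17, Adamts18 and Mmp16), 4 were not (Adamts6, Adamts9, Adamts20 and Timp3), and Adamts5 was called lower instead. Of the 6 called lower, Mmp14 and Adamts10 were still called and Mmp9, Mmp11, Mmp23 and Timp1 were not. In the posterior palate 7 members were higher and 1 lower after removal (7.72% and 10.2% of all genes), with 6 of the 13 rises still called (Adamts1, Adamts8, Adamts9, Adamts17, Mmp16 and Timp3) and neither fall. By family there 4 Adamts genes were higher and 1 lower, 2 Mmp genes higher and 0 lower, and 1 Timp higher and 0 lower.

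Marker sums of other cell types also stood apart between the tamoxifen and control libraries. Endothelial markers summed to 465 to 504 CPM in tamoxifen anterior and 406 to 445 CPM in control anterior libraries, with 4 of 6 called higher and 1 lower, and to 517 to 558 CPM in tamoxifen posterior and 448 to 480.0 CPM in control posterior libraries, with 4 of 6 higher and 0 lower. Schwann cell markers summed to 70.8 to 78.0 CPM in tamoxifen anterior and 58.4 to 67.3 CPM in control anterior libraries, with 1 of 4 higher and 1 lower, and to 92.2 to 102 CPM in tamoxifen posterior and 60.6 to 65.3 CPM in control posterior libraries, with 2 of 4 higher and 0 lower. In the posterior palate the sums of epithelial, skeletal muscle, smooth muscle and neuron markers also lay higher in every tamoxifen library. Of these markers 4 of 9, 1 of 7, 2 of 6 and 2 of 6 were called higher and 0 lower. The epithelial ranges nearly met, at 587 to 763 CPM in tamoxifen posterior and 526 to 586 CPM in control posterior libraries. In the anterior palate the sums of all these lists overlapped. There 3, 0, 1 and 2 markers were called higher and 1, 3, 2 and 0 lower, in the same order. For comparison, 25.6% of all genes were called higher and 24% lower in the anterior palate, and 17.3% and 11.7% in the posterior palate. With the trend removed, 3 endothelial markers were higher and 1 lower in the anterior palate, and 3 and 0 in the posterior palate. Schwann cell markers then gave 2 and 1, and 2 and 0. Posterior epithelial, skeletal muscle, smooth muscle and neuron markers gave 2, 2, 2 and 1 higher and 0 lower. The part of these cell types in the tamoxifen results was not tested.

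**Figure D2:**
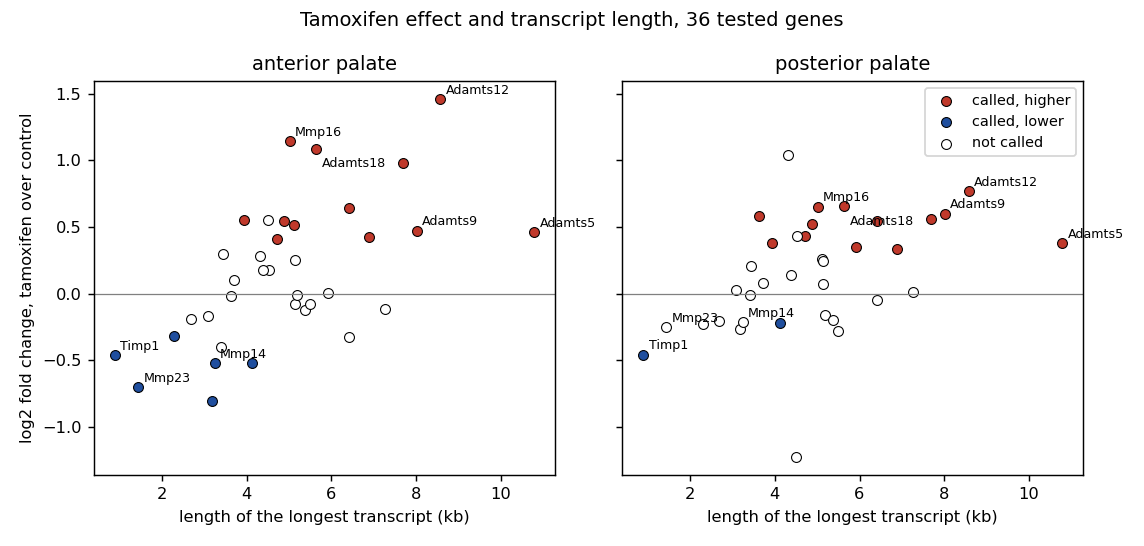
Log2 fold change, tamoxifen over control, of the 36 tested members against the length of the longest annotated transcript (in kilobases, linear axis), anterior palate on the left and posterior palate on the right, with called members filled. Longer transcripts lie higher in both panels (rho 0.57 and 0.48).

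The gelatinases cut denatured and basement membrane collagens. Mmp2 had 471, 393 and 485 CPM in the tamoxifen anterior libraries and 505, 503 and 509 CPM in the control anterior libraries, and 449, 549 and 533 CPM in the tamoxifen posterior libraries and 504, 504 and 496 CPM in the control posterior libraries. In the anterior palate its tamoxifen values all lay below the control values, yet the difference of -0.17 ± 0.09 (SE; adjusted p = 0.12) was not called, and in the posterior palate the values overlapped with a difference of 0.03 ± 0.09 (SE; adjusted p = 0.85). Mmp9, which in developing bone is made by osteoclasts and elsewhere by neutrophils and macrophages, had 30.3, 20.7 and 50.04 CPM in the tamoxifen anterior libraries and 55.96, 60.9 and 59.4 CPM in the control anterior libraries. Its tamoxifen values spread widely and all lay below the control values. The difference was -0.81 ± 0.29 (SE; adjusted p = 0.044), a level 0.572-fold that of controls. This call was lost without tamoxifen anterior replicate 1 or 2, control anterior replicate 1, 2 or 3, tamoxifen posterior replicate 2 or control posterior replicate 1, 2 or 3 (-0.83 to -0.55, adjusted p up to 0.14), and after removal of the trend the difference was -0.55 (adjusted p = 0.16). On the posterior side Mmp9 stood at 15.5, 19.7 and 28.4 CPM in the tamoxifen posterior libraries and 23.9, 26.95 and 25.4 CPM in the control posterior libraries, with overlap and no call (-0.26 ± 0.30, SE, adjusted p = 0.54).

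Markers of bone and of blood-derived cells also varied between these libraries. The 6 bone markers (Runx2, Sp7, Ibsp, Bglap, Spp1 and Alpl) summed to 417, 263 and 627 CPM in the tamoxifen anterior libraries and 474, 548 and 495 CPM in the control anterior libraries. The lowest and the highest sum were in the same tamoxifen libraries as the lowest and the highest Mmp9 level, an order of 3 libraries only. No list of osteoclast markers was used. Neutrophil markers summed to 2.33 to 3.97 CPM in tamoxifen anterior and 3.48 to 6.29 CPM in control anterior libraries, and macrophage markers to 61.3 to 87.2 and 62.0 to 71.8 CPM. Under tamoxifen 25.6% of all genes were called higher and 24% lower in the anterior palate. Of the 6 neutrophil markers 1 was called lower there and of the 6 bone markers 0 were called. Of the 10 macrophage and leukocyte markers 3 were higher and 1 was lower. Their part in the Mmp9 result was not tested. In tissue measured in bulk, fewer cells of a type and less RNA per cell cannot be told apart, here and in all results below.

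Among the membrane-type proteases Mmp14 and Mmp16 moved in opposite directions. Mmp14, the activator of Mmp2 and a collagenase at the cell surface, had 473, 395 and 511 CPM in the tamoxifen anterior libraries and 583, 656 and 740.0 CPM in the control anterior libraries. All 3 tamoxifen values lay below the controls, a log2 difference of -0.52 ± 0.12 (SE; adjusted p = 0.0014) still called after removal of the trend at -0.30 (adjusted p = 0.01). Posterior Mmp14 levels were 497, 609 and 626 CPM in the tamoxifen posterior libraries and 742, 627 and 637 CPM in the control posterior libraries. The highest tamoxifen value lay only just below the lowest control value, and the difference was not called (-0.21 ± 0.11, SE, adjusted p = 0.18). With the trend removed it was -0.12 (adjusted p = 0.36).

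Mmp16, another transmembrane member able to activate pro-Mmp2, had 45.2, 51.7 and 41.9 CPM in the tamoxifen anterior libraries and 24.5, 20.1 and 18.3 CPM in the control anterior libraries. The 2 groups stood apart, and the rise was 1.14 ± 0.13 (SE; adjusted p = 4.9e-06), or 2.21-fold. Posterior Mmp16 levels were 57.7, 58.9 and 60.3 CPM in the tamoxifen posterior libraries and 30.4, 43.1 and 39.2 CPM in the control posterior libraries, also without overlap, and the rise was 0.65 ± 0.12 (SE; adjusted p = 0.0017). With the trend removed Mmp16 was still higher, by 0.68 (adjusted p = 5.7e-05) in the anterior and 0.37 (adjusted p = 0.011) in the posterior palate. On the CPM per kilobase scale Mmp16 stood at 8.17 and Mmp14 at 183, so the level of the rising member was far below that of the falling one. The tamoxifen differences of Mmp15 (-0.07 anterior, 0.07 posterior), of the membrane-anchored Mmp17 (-0.32, -0.04) and Mmp25 (0.17, 0.43) and of Mmp24 (0.28, 1.04), a member known from neurons, were not called. After removal of the trend Mmp17 was lower in the anterior palate at -0.46 (adjusted p = 0.032).

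Of the other Mmp genes, Mmp11 and Mmp23 were called. Mmp11, or stromelysin-3, is made by mesenchyme next to epithelium during tissue remodelling, and had 119, 96.6 and 115 CPM in the tamoxifen anterior libraries and 124, 139 and 149 CPM in the control anterior libraries. The tamoxifen values lay below all control values, with a log2 difference of -0.32 ± 0.09 (SE; adjusted p = 0.0066), but with the trend removed the difference was 0.08 (adjusted p = 0.24). Posterior Mmp11 levels were 115, 129 and 124 CPM in the tamoxifen posterior libraries and 148, 136 and 147 CPM in the control posterior libraries, without overlap, and the difference of -0.23 ± 0.09 (SE; adjusted p = 0.063) missed the call. Mmp23, a short transcript at a low level, had 4.71, 4.01 and 5.26 CPM in the tamoxifen anterior libraries and 7.41, 7.74 and 7.56 CPM in the control anterior libraries. These groups did not overlap either, and the log2 difference of -0.70 ± 0.14 (SE; adjusted p = 0.00072) likewise ended after trend removal, at -0.15 (adjusted p = 0.41). Its posterior difference was -0.25 ± 0.14 (SE; adjusted p = 0.2).

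Mmp28, epilysin, averaged 8.01 ± 0.330 CPM in tamoxifen anterior and 6.51 ± 0.259 CPM in control anterior libraries (SD, n = 3 each), a difference of 0.30 ± 0.12 (SE; adjusted p = 0.052) without overlap. After removal of the trend Mmp28 was higher under tamoxifen in both parts of the palate, by 0.65 (adjusted p = 0.00035) and 0.36 (adjusted p = 0.035). The collagenase Mmp13 and Mmp19 reached at most 0.399 and 1.20 CPM in a library and were not called in any comparison. Exons of Mmp11, Mmp19, Mmp24 and Mmp28 overlap those of a gene on the opposite strand (Chchd10, Tmem198b, BC029722 and 1700020L24Rik), as do those of Adamts7 (Tbc1d2b), Timp3 (Syn3) and Timp4 (Syn2). Exons of Adamts9 (A730049H05Rik and Gm15737) and Adamts8 (Gm29724) overlap those of opposite-strand genes that have no counts of their own here. The strand setting of the counting is not given in the sources used here, so part of these counts may come from the partner.

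**Figure D3:**
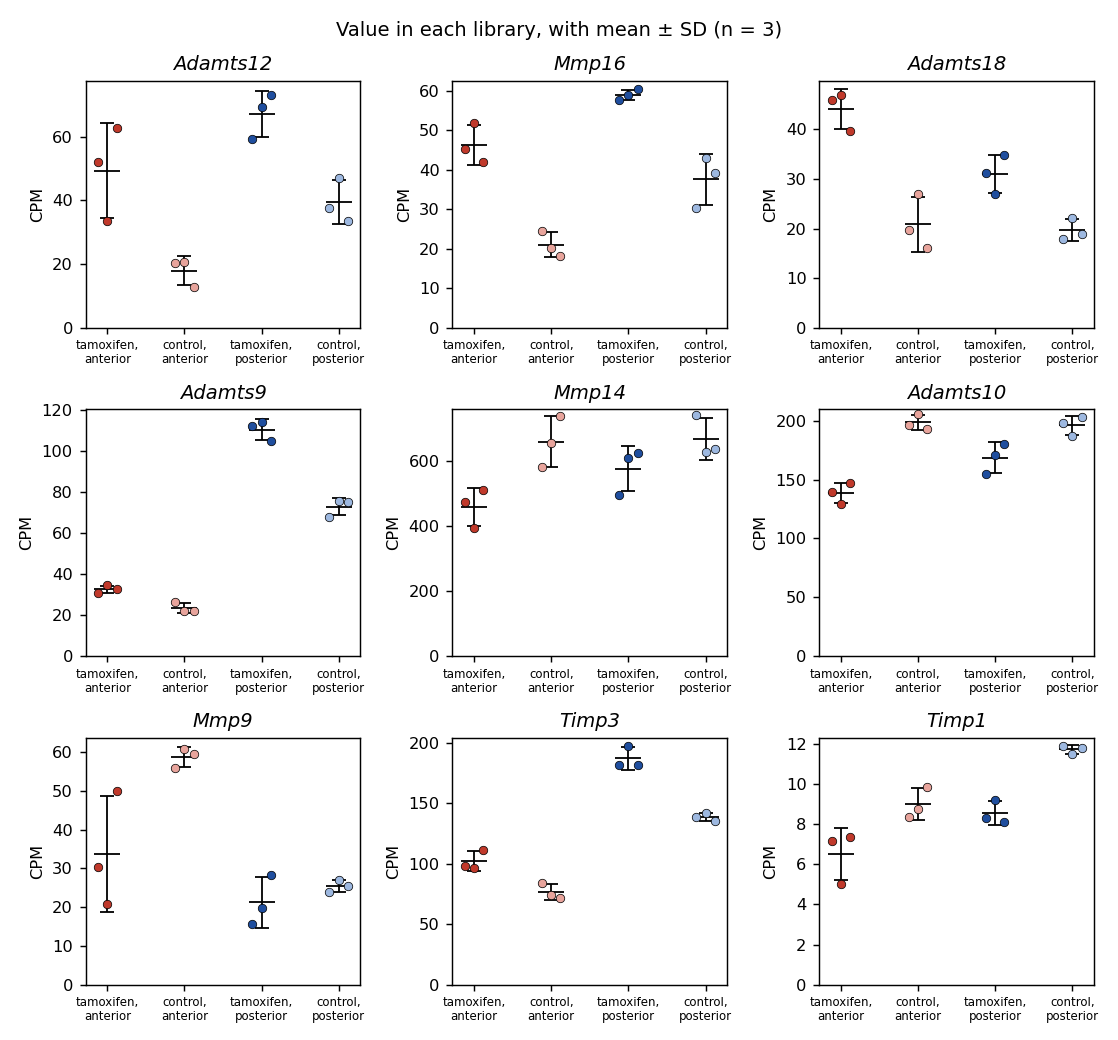
Level in CPM of 9 chosen members (Adamts12, Mmp16, Adamts18, Adamts9, Mmp14, Adamts10, Mmp9, Timp3 and Timp1), which are not the 9 largest tamoxifen changes. There is 1 point per library, with the mean and SD of each group of 3. Groups are tamoxifen anterior, control anterior, tamoxifen posterior and control posterior libraries from left to right. Adamts12, Mmp16 and Adamts18 lie higher under tamoxifen in both parts of the palate, and Mmp14, Adamts10 and Timp1 lie lower.

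The 7 proteoglycan-cleaving Adamts genes include the versicanases of the palate. In the anterior palate 4 of them (Adamts1, Adamts5, Adamts9 and Adamts20) were higher under tamoxifen and 0 were lower, and in the posterior palate 6 were higher (those 4, Adamts8 and Adamts15) and 0 lower. Of all genes 25.6% and 24% were called higher and lower in the anterior and 17.3% and 11.7% in the posterior palate. Once the trend was removed 2 of the 7 were higher and 1 lower in the anterior palate, with a median of -0.04, and 3 were higher and 0 lower in the posterior palate. Their summed level was 54.5, 55.5 and 53.5 CPM per kilobase in tamoxifen posterior and 39.8, 40.9 and 40.2 in control posterior libraries. In the anterior palate it was 35.8, 35.7 and 37.9 CPM per kilobase in tamoxifen and 29.9, 30.03 and 27.4 in control libraries, so the sums did not overlap in either part. With the trend removed the sums still did not overlap, at 50.9, 49.9 and 48.02 against 40.7, 42.2 and 41.7 in the posterior and 33.7, 34.9 and 35.6 against 32.6, 32.4 and 32.1 in the anterior palate, but the anterior gap was small.

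Adamts9 cuts versican at the surface of the cells that make it. It had 30.9, 34.4 and 32.5 CPM in the tamoxifen anterior libraries and 26.4, 21.9 and 22.2 CPM in the control anterior libraries, and 112, 114 and 105 CPM in the tamoxifen posterior libraries and 67.9, 75.3 and 75.3 CPM in the control posterior libraries. Tamoxifen values lay above control values in both parts, with rises of 0.47 ± 0.08 (SE; adjusted p = 0.00026) in the anterior and 0.60 ± 0.08 (SE; adjusted p = 0.00032) in the posterior palate. With the trend removed the anterior difference was -0.04 (adjusted p = 0.75) and the posterior one 0.27 (adjusted p = 0.014). Adamts20, its closest relative, had 37.6, 37.00 and 35.98 CPM in the tamoxifen anterior libraries and 30.9, 27.3 and 24.3 CPM in the control anterior libraries. The groups did not overlap, the rise was 0.43 ± 0.10 (SE; adjusted p = 0.0015), and the difference was -0.07 (adjusted p = 0.47) after removal of the trend. Posterior Adamts20 rose by 0.33 ± 0.10 (SE; adjusted p = 0.016), and its difference was 0.01 (adjusted p = 0.92) after removal. The posterior call of Adamts20 was lost without tamoxifen posterior replicate 1 or 3 or control posterior replicate 1 (0.26 to 0.31, adjusted p up to 0.089).

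Adamts1, a versicanase also known from the ovary and blood vessels, had 53.9, 52.9 and 65.6 CPM in the tamoxifen anterior libraries and 41.6, 39.00 and 37.4 CPM in the control anterior libraries. It rose by 0.55 ± 0.09 (SE; adjusted p = 0.00016) in the anterior and 0.52 ± 0.09 (SE; adjusted p = 0.0011) in the posterior palate, without overlap in either. These rises were called with the trend removed too, at 0.30 (adjusted p = 0.0076) and 0.35 (adjusted p = 0.006). Adamts5, the main aggrecanase of mouse cartilage and the member with the longest transcript among the tested, rose by 0.46 ± 0.12 (SE; adjusted p = 0.0036) in the anterior palate, and its sign turned on removal of the trend, to -0.32 (adjusted p = 0.044). That reversed call was lost when the replicate number was also used as a block (-0.32, adjusted p = 0.057). Posterior Adamts5 rose by 0.38 ± 0.11 (SE; adjusted p = 0.022), a difference of -0.10 (adjusted p = 0.6) after removal and a call that was lost without tamoxifen posterior replicate 1 or 2 or control posterior replicate 1, 2 or 3 (0.29 to 0.40, adjusted p up to 0.11).

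Adamts8 had 8.09, 9.50 and 10.6 CPM in the tamoxifen posterior libraries and 7.66, 5.78 and 5.35 CPM in the control posterior libraries. It rose there by 0.59 ± 0.20 (SE; adjusted p = 0.042), and by 0.71 (adjusted p = 0.012) with the trend removed, while its anterior difference was -0.01 ± 0.21 (SE; adjusted p = 0.96). The posterior call of Adamts8 was lost with the replicate number as a block (adjusted p = 0.056) and without tamoxifen anterior replicate 1, control anterior replicate 1, tamoxifen posterior replicate 1, 2 or 3 or control posterior replicate 2 or 3 (0.48 to 0.67, adjusted p up to 0.16). Adamts15, a further versicanase, had 63.2, 62.1 and 56.7 CPM in the tamoxifen posterior libraries and 50.5, 46.2 and 45.8 CPM in the control posterior libraries. The groups did not overlap and the rise was 0.35 ± 0.09 (SE; adjusted p = 0.0094), with 0.24 (adjusted p = 0.12) and no call after removal of the trend, against 0.01 ± 0.09 (SE; adjusted p = 0.94) in the anterior palate. Adamts4 was not called in either part (0.17 and 0.14), and with the trend removed it was higher in the anterior palate, at 0.26 (adjusted p = 0.021).

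Adamts2, Adamts3 and Adamts14 remove the amino-terminal propeptide of procollagens, and Adamts3 also takes part in the activation of the lymphatic growth factor Vegfc. Of these only Adamts3 was called under tamoxifen. It had 30.4, 26.3 and 29.9 CPM in the tamoxifen anterior libraries and 24.6, 18.6 and 16.02 CPM in the control anterior libraries, without overlap, and rose by 0.55 ± 0.13 (SE; adjusted p = 0.0027), still called with the trend removed at 0.50 (adjusted p = 0.0065). Posterior levels of Adamts3 were 32.8, 39.04 and 41.3 CPM in the tamoxifen posterior libraries and 28.6, 31.4 and 26.8 CPM in the control posterior libraries. That rise of 0.38 ± 0.13 (SE; adjusted p = 0.038) was 0.33 (adjusted p = 0.079) after removal, and the call was lost without tamoxifen anterior replicate 1 or 3, control anterior replicate 2, tamoxifen posterior replicate 2 or 3 or control posterior replicate 1 or 3 (0.31 to 0.38, adjusted p up to 0.14). Adamts2, the most abundant of the 3 at 13.9 CPM per kilobase, differed by -0.11 ± 0.17 (SE; adjusted p = 0.61) and 0.02 ± 0.17 (SE; adjusted p = 0.96), and Adamts14 by -0.01 ± 0.13 (SE; adjusted p = 0.96) and -0.16 ± 0.13 (SE; adjusted p = 0.37).

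Adamts7 and Adamts12 cut cartilage oligomeric matrix protein. Adamts12 had the largest called tamoxifen change of the members in the anterior palate, with 51.9, 33.3 and 62.7 CPM in the tamoxifen anterior libraries and 20.5, 20.6 and 12.7 CPM in the control anterior libraries. The lowest tamoxifen value was well above the highest control value, and the rise was 1.46 ± 0.25 (SE; adjusted p = 0.00062), or 2.75-fold. Adamts12 in the posterior palate had 59.1, 69.3 and 73.04 CPM in the tamoxifen posterior libraries and 37.7, 46.98 and 33.5 CPM in the control posterior libraries, again without overlap, and rose by 0.77 ± 0.24 (SE; adjusted p = 0.034). With the trend removed the anterior rise was 0.85 (adjusted p = 0.026) and the posterior difference 0.38 (adjusted p = 0.31). The posterior call was lost with the replicate number as a block (adjusted p = 0.078) and without tamoxifen anterior replicate 1, control anterior replicate 1, tamoxifen posterior replicate 1, 2 or 3 or control posterior replicate 1 or 3 (0.67 to 0.84, adjusted p up to 0.11). Adamts7 had 120.4, 153 and 150.3 CPM in the tamoxifen posterior libraries and 159, 159 and 167 CPM in the control posterior libraries, and its posterior values under tamoxifen lay below those of controls. The differences of -0.20 ± 0.09 (SE; adjusted p = 0.13) in the posterior and -0.12 ± 0.09 (SE; adjusted p = 0.31) in the anterior palate were not called, but with the trend removed Adamts7 was lower in the posterior palate at -0.23 (adjusted p = 0.015).

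Adamts6, Adamts10 and Adamts17 are linked to fibrillin microfibrils, and mutations of ADAMTS10 and ADAMTS17 cause Weill-Marchesani syndromes in humans. Adamts10, the most abundant Adamts transcript at 42.6 CPM per kilobase, had 139, 129 and 147 CPM in the tamoxifen anterior libraries and 197, 206 and 193 CPM in the control anterior libraries. It fell by 0.52 ± 0.07 (SE; adjusted p = 3.8e-05) without overlap, and was still lower with the trend removed at -0.26 (adjusted p = 0.0013). Posterior Adamts10 levels were 155, 171 and 180.3 CPM in the tamoxifen posterior libraries and 198, 187 and 203 CPM in the control posterior libraries, a log2 difference of -0.22 ± 0.07 (SE; adjusted p = 0.037) that came to -0.12 (adjusted p = 0.12) after removal. That posterior call was lost without tamoxifen posterior replicate 1 or 2 or control posterior replicate 1 or 3 (-0.22 to -0.18, adjusted p up to 0.14).

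Adamts17 went the other way, with 103, 99.9 and 90.6 CPM in the tamoxifen anterior libraries and 68.3, 64.01 and 55.4 CPM in the control anterior libraries, and 111, 119.8 and 146 CPM in the tamoxifen posterior libraries and 85.5, 87.4 and 85.3 CPM in the control posterior libraries. All tamoxifen values exceeded the controls, and the rises of 0.64 ± 0.10 (SE; adjusted p = 7.4e-05) in the anterior and 0.55 ± 0.10 (SE; adjusted p = 0.0013) in the posterior palate were still called with the trend removed, at 0.44 (adjusted p = 0.00069) and 0.38 (adjusted p = 0.0051). Adamts6, the closest relative of Adamts10, had 11.4, 14.8 and 9.65 CPM in the tamoxifen anterior libraries and 6.27, 7.47 and 4.50 CPM in the control anterior libraries. It rose by 0.98 ± 0.19 (SE; adjusted p = 0.00057) without overlap, and the difference was 0.30 (adjusted p = 0.11), no longer a call, with the trend removed. Posterior levels of Adamts6 were 24.2, 19.1 and 20.3 CPM in the tamoxifen posterior libraries and 11.8, 16.5 and 14.8 CPM in the control posterior libraries. The rise of 0.56 ± 0.18 (SE; adjusted p = 0.03) became 0.15 (adjusted p = 0.48) after removal, and the call was lost without tamoxifen posterior replicate 1 or 3 or control posterior replicate 1 or 3 (0.44 to 0.60, adjusted p up to 0.13). The members of this fibrillin-linked trio thus moved in different directions in the anterior palate.

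Adamts18 had 45.9, 46.9 and 39.6 CPM in the tamoxifen anterior libraries and 19.6, 26.9 and 16.04 CPM in the control anterior libraries. The groups were far apart and the rise was 1.08 ± 0.15 (SE; adjusted p = 4.9e-05), or 2.12-fold. In the posterior palate it had 31.3, 26.9 and 34.7 CPM in the tamoxifen posterior libraries and 17.96, 22.2 and 18.9 CPM in the control posterior libraries, also apart, with a rise of 0.65 ± 0.15 (SE; adjusted p = 0.0064). After removal of the trend the differences were 0.74 (adjusted p = 0.0016) and 0.42 (adjusted p = 0.06). Adamts16 had 8.12, 5.48 and 7.36 CPM in the tamoxifen anterior libraries and 4.56, 5.46 and 4.71 CPM in the control anterior libraries. It rose by 0.51 ± 0.15 (SE; adjusted p = 0.0085), with the lowest tamoxifen value only just above the highest control value, and by 0.37 (adjusted p = 0.039) with the trend removed. The call of Adamts16 was lost without tamoxifen anterior replicate 1 (0.39, adjusted p = 0.059). Its posterior difference (0.26 ± 0.14, SE, adjusted p = 0.18), both differences of Adamts19 (0.25, 0.24) and those of the von Willebrand factor protease Adamts13 (0.55, -1.22), which reached at most 0.379 CPM, were not called.

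The 4 Timps did not move together. Timp1, a secreted inhibitor of most Mmp enzymes, had 7.15, 5.01 and 7.39 CPM in the tamoxifen anterior libraries and 8.35, 8.78 and 9.88 CPM in the control anterior libraries, and 8.30, 9.23 and 8.12 CPM in the tamoxifen posterior libraries and 11.9, 11.5 and 11.8 CPM in the control posterior libraries. Tamoxifen values lay below all controls in both parts, with log2 differences of -0.46 ± 0.14 (SE; adjusted p = 0.012) and -0.46 ± 0.14 (SE; adjusted p = 0.021). Timp1 has the shortest transcript of the tested members, 883 bases, and with the trend removed the differences were -0.07 (adjusted p = 0.72) and -0.22 (adjusted p = 0.25). The anterior call was lost without control anterior replicate 3 (-0.39, adjusted p = 0.055) and moved by over 1.5 times without tamoxifen anterior replicate 2 (-0.30, adjusted p = 0.050), and the posterior call was lost without tamoxifen posterior replicate 1 or 3 or control posterior replicate 1 or 3 (-0.45 to -0.42, adjusted p up to 0.069).

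Timp3, which binds to the matrix and inhibits Adamts as well as Mmp enzymes, had 98.3, 96.4 and 112 CPM in the tamoxifen anterior libraries and 84.3, 73.97 and 71.96 CPM in the control anterior libraries, and 182, 198 and 182 CPM in the tamoxifen posterior libraries and 139, 142 and 136 CPM in the control posterior libraries. Tamoxifen values were higher without overlap, with rises of 0.41 ± 0.08 (SE; adjusted p = 0.00043) in the anterior and 0.43 ± 0.08 (SE; adjusted p = 0.0013) in the posterior palate. With the trend removed these were 0.09 (adjusted p = 0.35) and 0.22 (adjusted p = 0.033). Timp2 differed by 0.10 ± 0.09 (SE; adjusted p = 0.35) in the anterior and 0.08 ± 0.09 (SE; adjusted p = 0.53) in the posterior palate, and was higher in the anterior palate with the trend removed, at 0.23 (adjusted p = 0.0084). Timp4 reached at most 1.09 CPM and was not called under tamoxifen (-0.08 and -0.28).

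Set against protease transcripts, Timp transcripts stood higher in every tamoxifen library than in every control library of the same part of the palate. Per 100 units of summed Mmp and Adamts level (CPM per kilobase) there were 20.3, 19.8 and 20.6 units of Timp in tamoxifen anterior and 17.1, 15.7 and 15.2 in control anterior libraries. In the posterior palate there were 24.02, 23.0 and 21.9 units in tamoxifen and 20.6, 21.4 and 20.1 in control libraries. The groups did not overlap with the trend removed either (19.8, 18.6 and 20.0 against 17.5, 16.3 and 16.2 anterior, and 22.9, 22.8 and 21.9 against 21.4, 21.4 and 20.8 posterior), where the distance was smaller. The anterior difference came with a lower Mmp sum, 394, 329 and 414 CPM per kilobase in tamoxifen and 447, 476 and 508 in control libraries. The Mmp sums overlapped with the trend removed, at 423, 389 and 443 in tamoxifen and 426, 444 and 451 in control libraries. The summed Timp level overlapped in the anterior palate as deposited, at 110.2, 92.02 and 117 in tamoxifen and 101, 97.1 and 97.3 in control libraries. These ratios are of transcripts and say nothing of active enzyme.

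**Figure D4:**
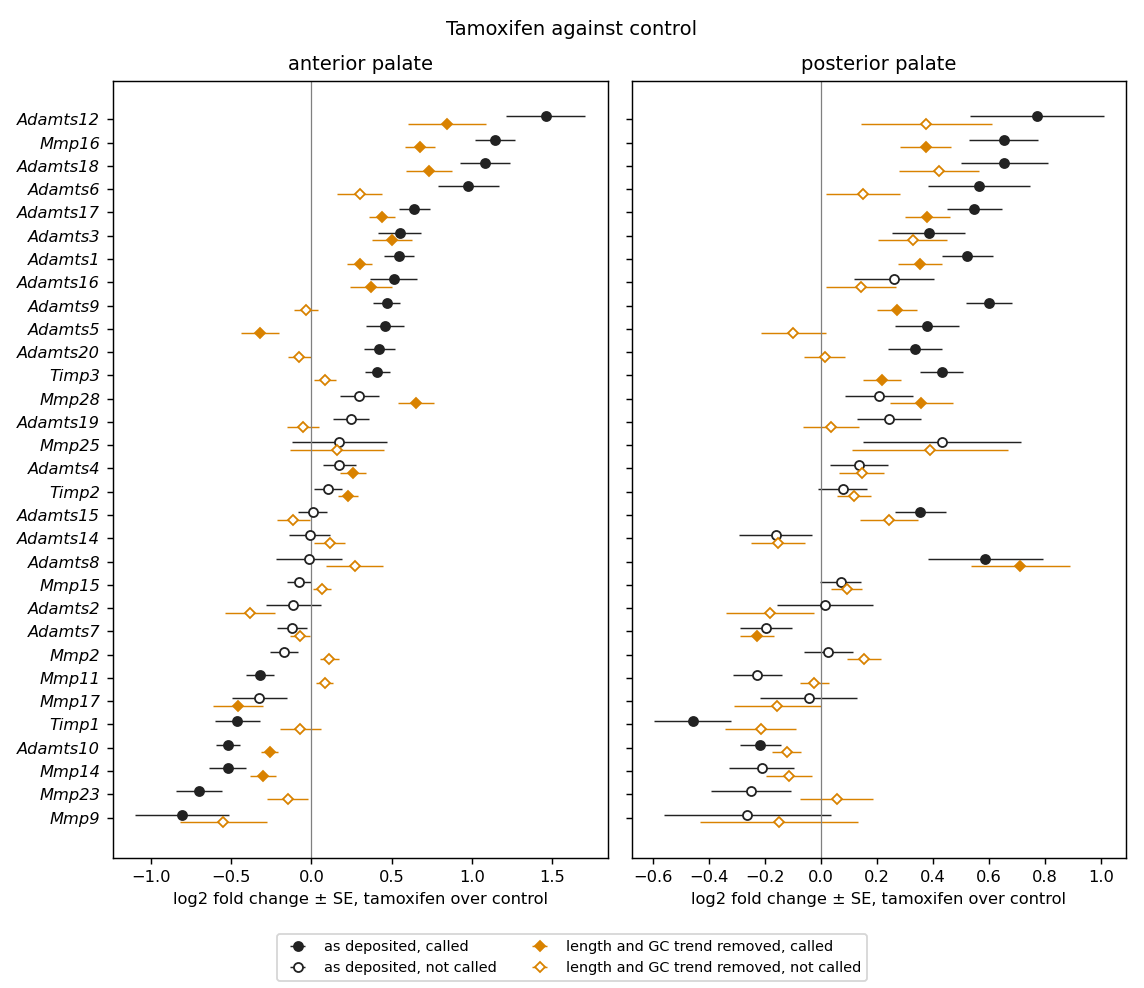
Log2 fold change ± SE, tamoxifen over control, of the 31 tested members with a mean of at least 1 CPM over the 12 libraries, anterior palate on the left and posterior palate on the right, as deposited and with the length and GC trend removed. Filled symbols are called at an adjusted p under 0.05; Adamts5 in the anterior palate lies above 0 as deposited (0.46) and below 0 with the trend removed (-0.32).

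Whether tamoxifen acted differently in the parts of the palate was tested as the difference of the effects. In edgeR's quasi-likelihood test 0 of the 36 members were called in either direction, as were 0 of all 15958 genes (0%), and DESeq2 called 0 members, against 0.533% of all genes with a higher and 0.47% with a lower anterior effect. At an unadjusted p under 0.05 there were 4 members, and the share of all genes at that threshold was not counted. The smallest p was 0.01 for Adamts10 (adjusted p = 0.29), whose log2 fold changes were -0.52 in the anterior and -0.22 in the posterior palate. No effect called in one part and not in the other, such as that of Mmp14 or Adamts15, is therefore shown to differ between them.

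The regional comparison sets the anterior against the posterior palate. In controls 2 members were higher in the anterior palate, where 10.2% of all genes were called higher, and 13 were lower, where 13.1% were called lower. The median log2 fold change was -0.25 for the members and 0.02 for all genes. Of the 13 lower members 9 were Adamts genes, 3 Timps and 1 an Mmp gene. Values did not overlap in 2 members that were higher (20.2% of all genes) and in 18 that were lower (21%). Under tamoxifen 2 members were higher in the anterior palate (7.6% of all genes) and 11 lower (10.2%), 8 of them Adamts genes and 3 Timps, with a median of -0.33 for the members and 0.02 for all genes. Here values did not overlap in 4 members that were higher (16.3% of all genes) and 18 that were lower (16.8%). The number lower under tamoxifen was 7 without tamoxifen posterior replicate 3, and DESeq2 called 18 (11.6% of all genes). The number higher in the anterior palate was 1 in controls without control posterior replicate 1 or 3, and 1 under tamoxifen without tamoxifen anterior replicate 1 or tamoxifen posterior replicate 2. All 15 regional calls in controls were still called with the trend removed, and 12 of the 13 under tamoxifen, all but Adamts10. With it removed 3 members were higher and 15 lower in controls (14.4% and 12.5% of all genes), and 4 higher and 12 lower under tamoxifen (13.8% and 10.9%). Calls made only after removal were Mmp11 and Timp1 (lower) and Adamts20 (higher) in controls, and Mmp16 and Timp1 (lower) and Adamts14 and Adamts20 (higher) under tamoxifen. The regional and the tamoxifen comparisons share libraries, so their values stand side by side without a comparison between them.

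Adamts9 showed the largest regional difference among members above 5 CPM. Its anterior level, given above, was 23.5 ± 2.49 CPM against 72.8 ± 4.29 CPM in the posterior palate of controls (SD, n = 3 each), a log2 difference of -1.63 ± 0.09 (SE; adjusted p = 1.3e-09). Under tamoxifen it averaged 32.6 ± 1.77 CPM in anterior against 110.3 ± 5.06 CPM in posterior libraries, -1.76 ± 0.08 (SE; adjusted p = 3.1e-10). Adamts20 differed by 0.11 ± 0.10 (SE; adjusted p = 0.43) in controls and 0.20 ± 0.09 (SE; adjusted p = 0.16) under tamoxifen, neither of them called, and was called higher in the anterior palate with the trend removed, at 0.30 (adjusted p = 0.0064) and 0.21 (adjusted p = 0.044). Per kilobase Adamts9 stood at 2.93 and Adamts20 at 3.99 CPM in the control anterior libraries. In the control posterior libraries the levels were 9.09 and 3.69 CPM per kilobase. The order of these 2 versicanases was thus reversed between the parts of the palate. Adamts15 was lower in the anterior palate, at -0.40 ± 0.09 (SE; adjusted p = 0.0042) in controls and -0.75 ± 0.09 (SE; adjusted p = 1.2e-05) under tamoxifen.

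Timp3 followed Adamts9 in direction, averaging 76.7 ± 6.60 CPM in control anterior and 139 ± 3.21 CPM in control posterior libraries, -0.86 ± 0.08 (SE; adjusted p = 5.3e-07). Under tamoxifen it averaged 102 ± 8.38 CPM in anterior against 187 ± 9.17 CPM in posterior libraries, -0.87 ± 0.08 (SE; adjusted p = 3.6e-07). Timp2 was lower in the anterior palate, at -0.33 ± 0.09 (SE; adjusted p = 0.011) in controls and -0.31 ± 0.09 (SE; adjusted p = 0.021) under tamoxifen, the second of which was lost without tamoxifen anterior replicate 2 or tamoxifen posterior replicate 2 or 3 (-0.28 to -0.20, adjusted p up to 0.088). Timp4 was lower, at -1.80 ± 0.37 (SE; adjusted p = 0.0021) and -1.60 ± 0.37 (SE; adjusted p = 0.0051), at a low level of 0.248, 0.242 and 0.234 CPM in control anterior and 1.09, 0.740 and 0.705 CPM in control posterior libraries. All Timps except Timp1, at -0.38 ± 0.14 (SE; adjusted p = 0.056) and -0.39 ± 0.14 (SE; adjusted p = 0.067), were thus lower in the anterior palate in both comparisons, and with the trend removed Timp1 was called lower too, at -0.52 (adjusted p = 0.0054) and -0.37 (adjusted p = 0.042).

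Adamts12 was lower in the anterior palate of controls, at -1.14 ± 0.25 (SE; adjusted p = 0.007), and its difference under tamoxifen was -0.45 ± 0.24 (SE; adjusted p = 0.25). Mmp16 was lower, at -0.84 ± 0.13 (SE; adjusted p = 0.00011) in controls and differed by -0.35 ± 0.12 (SE; adjusted p = 0.058) under tamoxifen, where it was called lower with the trend removed, at -0.41 (adjusted p = 0.0031). Adamts6 was lower, at -1.24 ± 0.19 (SE; adjusted p = 0.00016) and -0.82 ± 0.18 (SE; adjusted p = 0.0039), Adamts7 at -0.65 ± 0.09 (SE; adjusted p = 7.7e-05) and -0.58 ± 0.09 (SE; adjusted p = 0.00027), and Adamts16 at -0.77 ± 0.15 (SE; adjusted p = 0.001) and -0.52 ± 0.14 (SE; adjusted p = 0.017). The last of these, under tamoxifen, was lost without tamoxifen anterior replicate 2 or tamoxifen posterior replicate 3 (-0.48 to -0.37, adjusted p up to 0.069). The other members lower in both comparisons were Adamts1 (-0.35 in controls and -0.33 under tamoxifen) and Adamts17 (-0.46 and -0.36). The Adamts1 calls were lost without control posterior replicate 2 (-0.31, adjusted p = 0.057) in controls and without tamoxifen anterior replicate 1 or 2 or tamoxifen posterior replicate 2 (-0.29 to -0.27, adjusted p up to 0.086) under tamoxifen, and that of Adamts17 under tamoxifen without tamoxifen anterior replicate 3 or tamoxifen posterior replicate 3 (-0.32 to -0.24, adjusted p up to 0.11). Adamts3 was lower in controls (-0.55), and Adamts10 under tamoxifen (-0.28), a call lost without tamoxifen posterior replicate 3 (-0.23, adjusted p = 0.074).

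Fewer members were higher in the anterior palate. Mmp9 was higher there in controls by 1.21 ± 0.30 (SE; adjusted p = 0.016), or 2.31-fold, without overlap, a call that was lost without control posterior replicate 1 or 3 (1.17 to 1.21, adjusted p up to 0.05). Under tamoxifen the Mmp9 values of the 2 parts overlapped, with a difference of 0.67 ± 0.30 (SE; adjusted p = 0.17). In controls 10.2% of all genes were called higher and 13.1% lower in the anterior palate. The neutrophil markers summed to 3.48 to 6.29 CPM in control anterior and 1.07 to 2.80 CPM in control posterior libraries, with 1 of 6 called higher. The bone markers summed to 474 to 548 and 379 to 481 CPM, with 1 of 6 called lower. Their part in the regional Mmp9 result was not tested. Adamts19 had 13.2, 12.6 and 10.6 CPM in control anterior and 8.50, 8.64 and 8.44 CPM in control posterior libraries, 0.51 ± 0.11 (SE; adjusted p = 0.0038). Under tamoxifen it had 14.8, 15.5 and 12.9 CPM in anterior against 10.8, 9.95 and 9.48 CPM in posterior libraries, 0.52 ± 0.11 (SE; adjusted p = 0.0033), again without overlap. Adamts18 was higher in the anterior palate under tamoxifen (0.51 ± 0.15, SE, adjusted p = 0.027) and differed by 0.08 ± 0.16 (SE; adjusted p = 0.74) in controls, and the call was lost without tamoxifen anterior replicate 1 or 2 or tamoxifen posterior replicate 1 or 2 (0.42 to 0.51, adjusted p up to 0.12).

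Marker sums of cartilage, skeletal muscle and epithelium did not overlap between the parts of the palate. Cartilage markers summed to 418 to 514 CPM in tamoxifen anterior, 504 to 565 CPM in control anterior, 1492 to 2135 CPM in tamoxifen posterior and 2088 to 2296 CPM in control posterior libraries, with 7 of 7 called lower in the anterior palate in controls and under tamoxifen. Skeletal muscle markers summed to 5.06 to 12.9, 7.56 to 26.8, 818 to 1100 and 657 to 746 CPM in the same order, again with 7 of 7 called lower in both. Epithelial markers summed to 891 to 1116 CPM in tamoxifen anterior, 918 to 1161 CPM in control anterior, 587 to 763 CPM in tamoxifen posterior and 526 to 586 CPM in control posterior libraries. In controls 6 of 9 were called higher in the anterior palate, and 7 of 9 under tamoxifen. The shares of all genes called higher and lower there were 10.2% and 13.1% in controls, and 7.6% and 10.2% under tamoxifen. The part of these tissues in the regional results of Adamts and Timp genes was not tested.

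**Figure D5:**
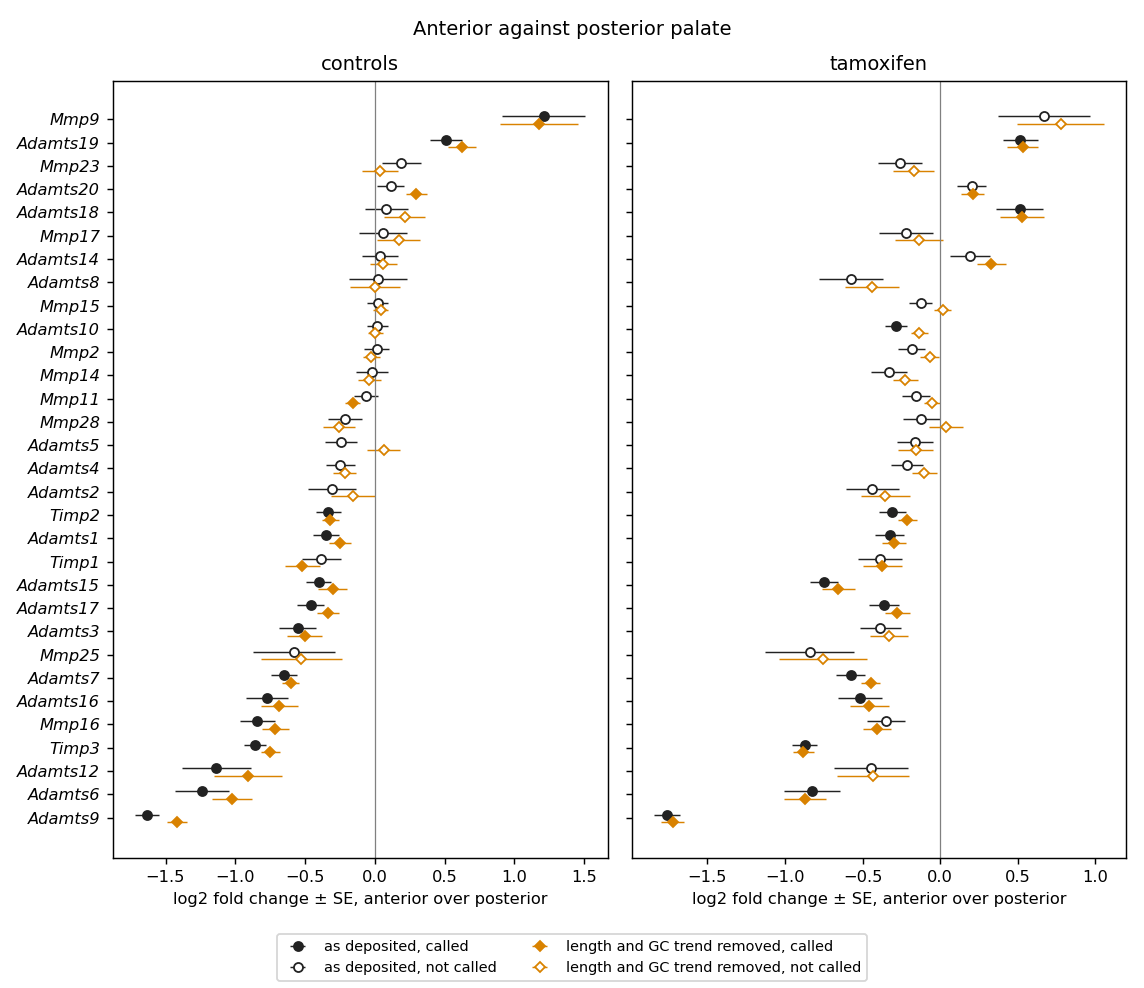
Log2 fold change ± SE, anterior over posterior palate, of the 31 tested members with a mean of at least 1 CPM over the 12 libraries, controls on the left and tamoxifen on the right, as deposited and with the length and GC trend removed. Adamts9 lies lowest in both panels (-1.63 and -1.76) and Adamts19 is called higher in both.

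Genes around the proteases were counted from lists. The shares of all genes called higher and lower were 25.6% and 24% under tamoxifen in the anterior palate, 17.3% and 11.7% under tamoxifen in the posterior palate, 10.2% and 13.1% in the anterior against the posterior palate of controls, and 7.6% and 10.2% in that comparison under tamoxifen. After trend removal they were 16.1% and 16.7%, 7.72% and 10.2%, 14.4% and 12.5%, and 13.8% and 10.9% in the same order. Of 18 tested regulators and activators 7 were higher and 1 was lower under tamoxifen in the anterior palate, and 5 were higher and 0 lower in the posterior palate. Trend removal gave 4 and 1 in the anterior and 5 and 1 in the posterior palate. Integrin alpha v (Itgav), a subunit of matrix receptors, had 109, 104 and 109 CPM in the tamoxifen anterior libraries and 57.02, 57.4 and 49.01 CPM in the control anterior libraries, a rise of 0.98 ± 0.09 (SE; adjusted p = 1.3e-06). It also rose in the posterior palate, by 0.66 ± 0.09 (SE; adjusted p = 0.00028), and both rises were called with the trend removed, at 0.35 (adjusted p = 0.0012) and 0.27 (adjusted p = 0.013). The proprotein convertase Pcsk5 rose by 0.46 ± 0.08 (SE; adjusted p = 0.00016) and 0.48 ± 0.08 (SE; adjusted p = 0.00074). Between the parts 2 regulators were higher and 4 lower in the anterior palate, in controls and under tamoxifen alike in number. Cd44, the hyaluronan receptor, had 39.4, 39.8 and 37.7 CPM in the control anterior libraries and 19.3, 20.6 and 16.6 CPM in the control posterior libraries, higher by 1.05 ± 0.17 (SE; adjusted p = 0.00031), and under tamoxifen by 1.21 ± 0.16 (SE; adjusted p = 7.4e-05). Pcsk5 was higher in the anterior palate by 0.46 ± 0.08 (SE; adjusted p = 0.00038) and 0.45 ± 0.08 (SE; adjusted p = 0.0005).

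The 7 Adamts-like genes code for relatives without a protease domain. Under tamoxifen 4 were higher and 3 lower in the anterior palate and 4 higher and 0 lower in the posterior palate. After trend removal these counts were 4 and 1 in the anterior and 2 and 0 in the posterior palate. Adamtsl3 rose by 1.10 ± 0.13 (SE; adjusted p = 6.3e-06) and 0.77 ± 0.12 (SE; adjusted p = 0.0006), Adamtsl1 by 0.83 ± 0.12 (SE; adjusted p = 6.0e-05) in the anterior, and Papln by 0.62 ± 0.12 (SE; adjusted p = 0.0017) in the posterior palate. Between the parts 1 was higher and 3 were lower in the anterior palate of controls, and 2 were higher and 2 lower under tamoxifen. Adamtsl2 was lower there, at -1.80 ± 0.15 (SE; adjusted p = 2.2e-07) in controls and -2.34 ± 0.16 (SE; adjusted p = 1.2e-08) under tamoxifen, and Papln was higher by 1.07 ± 0.12 (SE; adjusted p = 4.0e-06) and 1.16 ± 0.11 (SE; adjusted p = 1.0e-06).

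Of 11 genes of the membrane-anchored Adam family 7 were higher and 3 lower in the anterior palate under tamoxifen, and 6 higher and 1 lower in the posterior palate. Trend removal left 4 higher and 3 lower, and 3 higher and 1 lower, with medians of 0.04 and -0.04 after it and 0.50 and 0.28 before it. Adam33 had 5.19, 4.45 and 4.88 CPM in the tamoxifen anterior libraries and 10.7, 11.2 and 10.1 CPM in the control anterior libraries, a log2 difference of -1.14 ± 0.12 (SE; adjusted p = 2.8e-06), and in the posterior palate it fell by 0.71 ± 0.11 (SE; adjusted p = 0.00052). The falls were called with the trend removed, at -0.80 (adjusted p = 1.3e-05) and -0.57 (adjusted p = 0.00059). Adam9 rose in the anterior palate by 0.70 ± 0.09 (SE; adjusted p = 1.3e-05), and Adam12, known from muscle and bone, in the posterior palate by 0.64 ± 0.11 (SE; adjusted p = 0.00089). Between the parts 0 Adam genes had a higher and 7 a lower anterior level in controls, and 1 was higher and 4 were lower under tamoxifen, and with the trend removed the control counts were 2 and 5. Adam12 was lower there, at -1.34 ± 0.11 (SE; adjusted p = 2.2e-07) and -1.08 ± 0.11 (SE; adjusted p = 1.5e-06), and Adam33 at -1.30 ± 0.11 (SE; adjusted p = 2.4e-07) and -1.73 ± 0.12 (SE; adjusted p = 1.2e-08).

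The list of procollagen processing and cross-linking, with 12 tested genes, had 5 higher and 2 lower under tamoxifen in the anterior palate and 6 higher and 1 lower in the posterior palate. Without the trend 3 were higher and 2 lower, and 3 higher and 1 lower. Bmp1, which removes the carboxy-terminal propeptide of procollagens, had 303, 290.4 and 322 CPM in the tamoxifen anterior libraries and 436, 443 and 438 CPM in the control anterior libraries, a log2 difference of -0.52 ± 0.08 (SE; adjusted p = 9.7e-05), and -0.51 (adjusted p = 4.3e-06) with the trend removed. The cross-linking enzyme Loxl2 rose in the anterior palate by 0.64 ± 0.07 (SE; adjusted p = 6.9e-06). Its relative Lox had 420.4, 504 and 460.0 CPM in the tamoxifen posterior libraries and 239.6, 263 and 257 CPM in the control posterior libraries, a rise of 0.86 ± 0.17 (SE; adjusted p = 0.0039) that was 0.62 (adjusted p = 0.076) and no call with the trend removed. Tll1, a relative of Bmp1, rose there by 0.79 ± 0.15 (SE; adjusted p = 0.0021). Between the parts 1 gene was higher and 5 were lower in the anterior palate of controls, and 1 was higher and 6 lower under tamoxifen. Lox was lower, at -2.03 ± 0.18 (SE; adjusted p = 3.3e-06) and -2.08 ± 0.18 (SE; adjusted p = 2.2e-06), Loxl2 at -0.70 ± 0.07 (SE; adjusted p = 2.7e-06) in controls and Tll2 at -3.29 ± 0.30 (SE; adjusted p = 3.8e-07) under tamoxifen.

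Of 22 tested substrates 10 were higher and 2 lower under tamoxifen in the anterior palate, and 4 higher and 0 lower in the posterior palate. After removal of the trend 3 were higher and 0 lower, and 2 higher and 0 lower. Versican (Vcan), the main substrate of Adamts9 and Adamts20 in the palate, had 812, 932 and 919 CPM in the tamoxifen anterior libraries and 563, 526 and 439 CPM in the control anterior libraries. Its rise of 0.80 ± 0.12 (SE; adjusted p = 8.6e-05) came to 0.02 (adjusted p = 0.92) with the trend removed, as those of Adamts9 and Adamts20 came to -0.04 (adjusted p = 0.75) and -0.07 (adjusted p = 0.47). The basement membrane protein nidogen (Nid1) rose by 0.73 ± 0.09 (SE; adjusted p = 1.3e-05) in the anterior and 0.51 ± 0.09 (SE; adjusted p = 0.0013) in the posterior palate, and 0.38 (adjusted p = 0.00059) and 0.27 (adjusted p = 0.014) were left with the trend removed. Von Willebrand factor (Vwf), the substrate of Adamts13, rose in the posterior palate by 0.95 ± 0.11 (SE; adjusted p = 0.00022). Between the parts 1 substrate was higher and 9 were lower in the anterior palate, in controls and under tamoxifen, and with the trend removed 3 were higher under tamoxifen. Vwf was higher there by 1.40 ± 0.11 (SE; adjusted p = 1.1e-07) and 0.84 ± 0.11 (SE; adjusted p = 2.2e-05), and the cartilage collagen Col2a1 was lower, at -2.36 ± 0.14 (SE; adjusted p = 3.8e-09) and -2.38 ± 0.14 (SE; adjusted p = 2.5e-09).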

How the data were processed

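RNA-seq was measured in 12 libraries, 4 groups of 3. The authors deposited 1 whole-number count per gene symbol and library, not normalized. The submitters' processing notes name HISAT2, StringTie and build mm9. Versions, counting program, annotation and strand setting were not given in the sources used here. Of the counts from 1 to 100, 57.1 to 60.1% were even per library. Members and gene lists were chosen with earlier results of these data known. Replicates differed by more than sampling noise (chi-square per degree of freedom at least 9.89).

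Counts were tested with edgeR 4.0.16 in R 4.3.3, with filterByExpr by group and TMM scaling. A robust quasi-likelihood fit of 4 group means to 12 libraries left 8 residual degrees of freedom. Calls were made where the p adjusted by Benjamini-Hochberg for 15958 genes was under 0.05. Adjusted p-values in the text are from this fit. The 5 comparisons were tamoxifen against control and anterior against posterior palate, each in both settings, and the difference of the tamoxifen effects. A rank test on 3 against 3 values was not used, since its smallest exact p is 0.1.

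The longest GENCODE transcript of each symbol gave its length and GC content. That annotation is of another build than the files, so the coordinates printed are of RefSeq promoters only. A further overlap of a member with another gene is not reported here. Of all symbols 23348 matched directly and 670 through an older symbol. For the trend removal, natural splines of length and GC (4 degrees of freedom each) were fitted in each library to genes above a mean log2 CPM of 1 and removed as an offset.

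Values in every library and full statistics were given for called members with a mean of at least 5 CPM in 1 of the groups compared, up to the 6 largest rises and 6 largest falls per comparison; further members were chosen for their role. From each other list (regulators and activators, Adamts-like, Adam, procollagen processing, substrates) up to 2 called genes with the smallest adjusted p were named per comparison. Alternatives were relative log expression scaling, DESeq2 1.42.0, no filter on low counts, the libraries of a comparison alone, the replicate number as a block, trend removal with and without the block, and leaving out each library.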

Additional observations from a re-analysis of the deposited data

How the results depend on the processing

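Of 61 calls of members in the 4 comparisons, relative log expression scaling and DESeq2 left all 61 called in the same direction, no filter on low counts 58, the libraries of the comparison alone 59, and removal of the length and GC trend 42, with 14 no longer called and 5 of the other sign. The 5 were, in the anterior palate under tamoxifen, Mmp11 (0.084 with the trend removed and 0.084 with the replicate block as well), Adamts5 (-0.32 and -0.32), Adamts9 (-0.035 and -0.036) and Adamts20 (-0.075 and -0.074), and, in the posterior palate, Adamts5 (-0.098 and -0.094). The cause of the trend was not tested. Counts that moved by over 1.5 times were, with the trend removed, 7 members higher and 1 lower under tamoxifen in the posterior palate (7 and 1 with the block) and 4 higher in the anterior palate under tamoxifen against the posterior. With trend removal and the block 3 members were lower under tamoxifen in the anterior palate. Without a filter 1 was lower in the posterior palate, and DESeq2 called 18 lower in the anterior than in the posterior palate under tamoxifen.

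Leaving out 1 library gave 11 to 13 members higher and 4 to 6 lower under tamoxifen in the anterior palate, 8 to 13 higher and 0 to 4 lower in the posterior palate, 1 to 2 higher and 12 to 16 lower in the anterior than in the posterior palate of controls, and 1 to 3 higher and 7 to 14 lower under tamoxifen. The difference of the tamoxifen effects had 0 calls of members in either direction in every setting run, and DESeq2 called 1 gene of the procollagen processing list.

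Same-numbered libraries of different groups deviated together in few cases: over 18 pairs the correlation of their deviations was -0.16 to 0.30, over 0.1 in 7, and 4 of 12 libraries correlated best with their own number, so the numbers were not taken to pair the samples. With the replicate block 11 members were higher in the posterior palate under tamoxifen, 59 of the 61 calls were made, all but those of Adamts8 and Adamts12 in the posterior palate under tamoxifen (adjusted p = 0.056 and 0.078), and the other counts were those without the block.

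Depth leaves the 10 untested members without a test, and of the 5 with a mean under 1 CPM only Timp4 was called, between the parts of the palate.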
